A study of Mus musculus with 11 samples.

Results

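Of the 36666 genes counted in the cerebrum of Polg mutator and control mice, 10 encode proteins that make, use or carry lactate and pyruvate. They are the lactate dehydrogenases Ldha, Ldhb and Ldhd, the monocarboxylate transporters Slc16a1 (MCT1), Slc16a3 (MCT4) and Slc16a7 (MCT2), the partner proteins Bsg and Emb, and the subunits Mpc1 and Mpc2 of the mitochondrial pyruvate carrier, which the count table lists under their former names Brp44l and Brp44. They were chosen by name and function and not by their values, though with earlier results of these data known. All 10 passed the filter on low counts that left 17983 genes for testing. Poly(A)+ RNA of frozen cerebral tissue was sequenced from 11 male C57/Bl6 mice at 1 year of age. The 7 mutators were D257A/D257A, that is, homozygous for a knock-in mutation that impairs proofreading by the mitochondrial DNA polymerase in every cell. The 4 controls were littermates, of which 3 were WT/WT and mouse 237 was WT/D257A and so carried 1 mutant allele. All mice came from matings of heterozygotes.

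Lactate dehydrogenase is a tetramer of A and B chains that interconverts pyruvate and lactate and in doing so recycles NADH to NAD+ in the cytosol. The A chain is known for glycolytic tissues and the B chain for oxidative ones such as heart and neurons. Lactate crosses membranes through monocarboxylate transporters, of which MCT1 is known from endothelium, oligodendrocytes and astrocytes, MCT2 from neurons and MCT4 from astrocytes. When respiration is impaired, pyruvate that is not oxidized in mitochondria can be reduced to lactate, so these genes lie where a respiratory defect meets glycolysis.

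Because Ldha and Ldhb are related, their mRNAs were first compared by sequence to see how far reads of one could be mistaken for the other. The coding sequences of Ldha-001 (999 bases) and Ldhb-001 (1005 bases) in GENCODE vM1 were identical at 71.47% of 999 aligned positions. Their longest identical stretch had 18 bases, far shorter than the 100-base reads. It lies at bases 699 to 716 of the Ldha coding sequence and 702 to 719 of that of Ldhb, and is shown in capitals between the 20 bases on either side.
Ldha: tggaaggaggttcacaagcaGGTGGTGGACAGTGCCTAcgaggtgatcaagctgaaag
Ldhb: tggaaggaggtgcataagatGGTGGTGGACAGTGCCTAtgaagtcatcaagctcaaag
Other copies of these genes are a closer match. In the mm9 genome, Ldha-001 matched 28 places outside its gene at 85% identity or more over at least 100 bases, the closest on chromosome 13 at 94.44% over 1584 bases. Ldhb-001 matched 1 place, on chromosome 19, at 97.59% over 1285 bases, and Mpc1 matched 2 places, of which 1 on chromosome 12 reached 99.77% over 885 bases. Mpc2 matched 2 places, the closest on chromosome 10 at 92.6% over 500 bases. Reads that fit both a gene and such a copy may have been lost from the counts, so the levels of Ldha, Ldhb, Mpc1 and Mpc2 are uncertain to that extent. The transcripts of Slc16a1, Slc16a3, Slc16a7, Bsg, Emb and Ldhd had 0 such matches.

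The promoters of Ldha and Slc16a3 are known targets of hypoxia-inducible factor, whose core site is ACGTG or GCGTG. In the 250 bases before the start in the RefSeq promoter table (GRCm38.p6), only ACGTG was searched, on both strands (as ACGTG or CACGT). Matches that overlap were counted as 1 place. Ldha had 3 places before its first start (chr7:46845554-46845803, plus strand), Slc16a3 had 2 (chr11:120948817-120949066, plus strand) and Ldhb had 0 (chr6:142507958-142508207, minus strand). The ACGTG form is in capitals in these windows, and was found before the A gene but not before the B gene of lactate dehydrogenase. The GCGTG form was not searched, and the Ldhb window holds it in small letters (gcgtg).
Ldha: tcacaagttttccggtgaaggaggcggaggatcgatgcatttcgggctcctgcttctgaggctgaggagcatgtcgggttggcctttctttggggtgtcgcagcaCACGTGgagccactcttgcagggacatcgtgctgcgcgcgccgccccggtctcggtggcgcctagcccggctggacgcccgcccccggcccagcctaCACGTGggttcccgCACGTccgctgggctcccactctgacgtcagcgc
Slc16a3: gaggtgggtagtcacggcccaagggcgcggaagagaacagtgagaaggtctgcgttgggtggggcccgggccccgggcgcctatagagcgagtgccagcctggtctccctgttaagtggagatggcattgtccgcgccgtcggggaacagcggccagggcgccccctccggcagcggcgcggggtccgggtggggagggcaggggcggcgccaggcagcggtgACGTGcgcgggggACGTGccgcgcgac
Ldhb: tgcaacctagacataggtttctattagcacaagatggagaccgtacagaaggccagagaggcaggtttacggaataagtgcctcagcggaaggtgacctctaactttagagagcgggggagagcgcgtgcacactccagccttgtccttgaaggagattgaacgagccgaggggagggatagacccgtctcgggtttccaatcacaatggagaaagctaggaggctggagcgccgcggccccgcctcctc
Of the 32851 promoters in the table, 16.6% had the ACGTG form at least once, 1.95% at 2 or more places and 0.256% at 3 or more. Ldhd and Slc16a1 had 1 place each, a second start of Ldha and the promoters of Emb, Mpc1 and Mpc2 had 0, and Slc16a7 and Bsg were not in the table. A match in these letters is not a bound site.

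Library totals ran from 28249345 to 121182250 gene counts, with medians of 52981946 in controls and 55741011 in mutators. Levels are given as CPM, the count of a gene divided by the library total in megareads and scaled by TMM library factors, which lay between 0.974 and 1.02. Coordinates of genes and exons are those of mm9. The tissue was cerebrum, with all its cell types together, so fewer cells of a type and less RNA per cell cannot be told apart.

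Per kilobase of 1 transcript of each gene in GENCODE vM1 (such as Ldha-001 and Ldhb-001), Ldhb was the most abundant of the 10 mRNAs, at 384 ± 18.2 CPM per kb in controls and 371 ± 17.7 in mutators (SD, n = 4 and 7). Bsg was next at 181 ± 11.3 CPM per kb in controls and then Ldha at 147 ± 6.19. Mpc1 had 92.6 ± 1.78 and Mpc2 46.3 ± 4.66 CPM per kb, above Emb at 12.6 ± 0.877 and Slc16a1 at 9.78 ± 0.465. Ldhd had 6.20 ± 0.319 CPM per kb, Slc16a7 4.45 ± 0.475 and Slc16a3 1.07 ± 0.210. In this order the ranges of neighbours over the 11 mice did not overlap. The MCT1 and MCT2 mRNAs were each several times as abundant as that of MCT4. The levels depend on the length used, and this choice was made after seeing the data. Over the union of all annotated exons, which for Ldha, Mpc1, Mpc2, Ldhd and Slc16a3 is much longer, Ldha had 78.0 CPM per kb in controls, Mpc1 42.5, Mpc2 12.5, Ldhd 2.64 and Slc16a3 0.456, and Mpc2 then overlapped with Emb and Slc16a1 and Ldhd fell below Slc16a7. Much of that added length was hardly read, such as bin 4 of Mpc2, which has 2700 of the 3804 bases and 5.11% of the exon counts in WT/WT mice. For Emb either length gives an underestimate, since its first exon of 333 bases, which the annotation also gives to Gm17509 on the opposite strand, had 0 reads in each of the 10 mice with exon counts. The level of Bsg is an underestimate too. Its 1752 bases, those of Bsg-201, include an exon of 348 bases that held 0.453% of its exon counts in WT/WT mice.

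**Figure D1:**
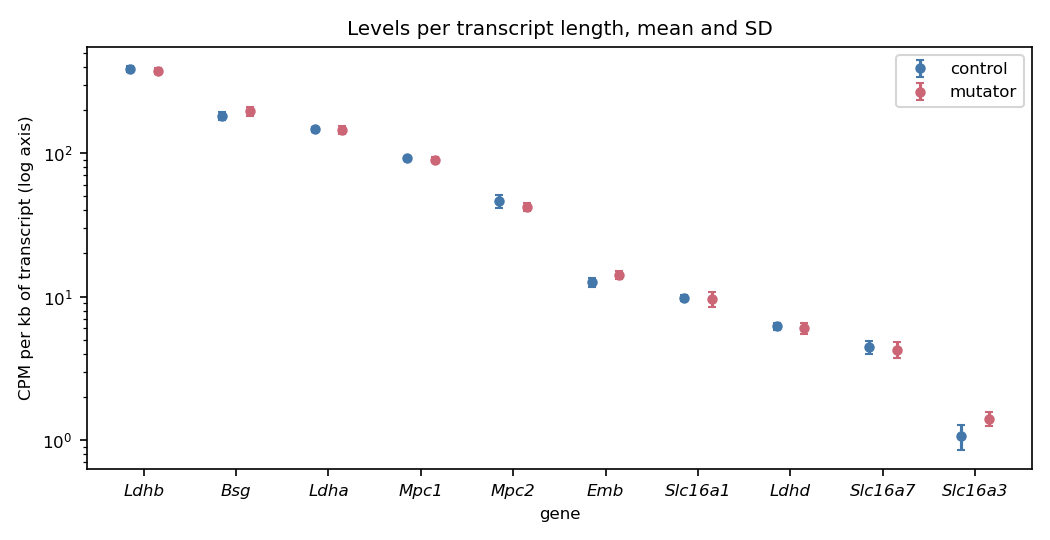
mRNA level of the 10 genes per kilobase of transcript (CPM per kb, log axis) in order of the control mean, with the mean and SD of 4 controls (blue) and 7 mutators (red). Ldhb is highest at 384 CPM per kb and Slc16a3 lowest at 1.07 in controls, and the order of the control means is the same in the mutators.

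None of the 10 genes passed the test for a difference between mutators and controls (edgeR quasi-likelihood, adjusted p under 0.05), in a table where 223 of 17983 genes (1.24%) did. At an unadjusted p under 0.05 there were 4 of the 10, which were Emb, Slc16a3 and Bsg with higher means in mutators and Mpc2 with a lower mean, where 15.8% of all tested genes reached that level. The median log2 fold change of the 10 genes was -0.031 against 0.0014 over all genes tested. In all 10 genes the values of the groups overlapped. Over all 17983 tested genes, every mutator was above every control in 216 (1.2%), and the share with every mutator below was not counted.

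**Figure D2:**
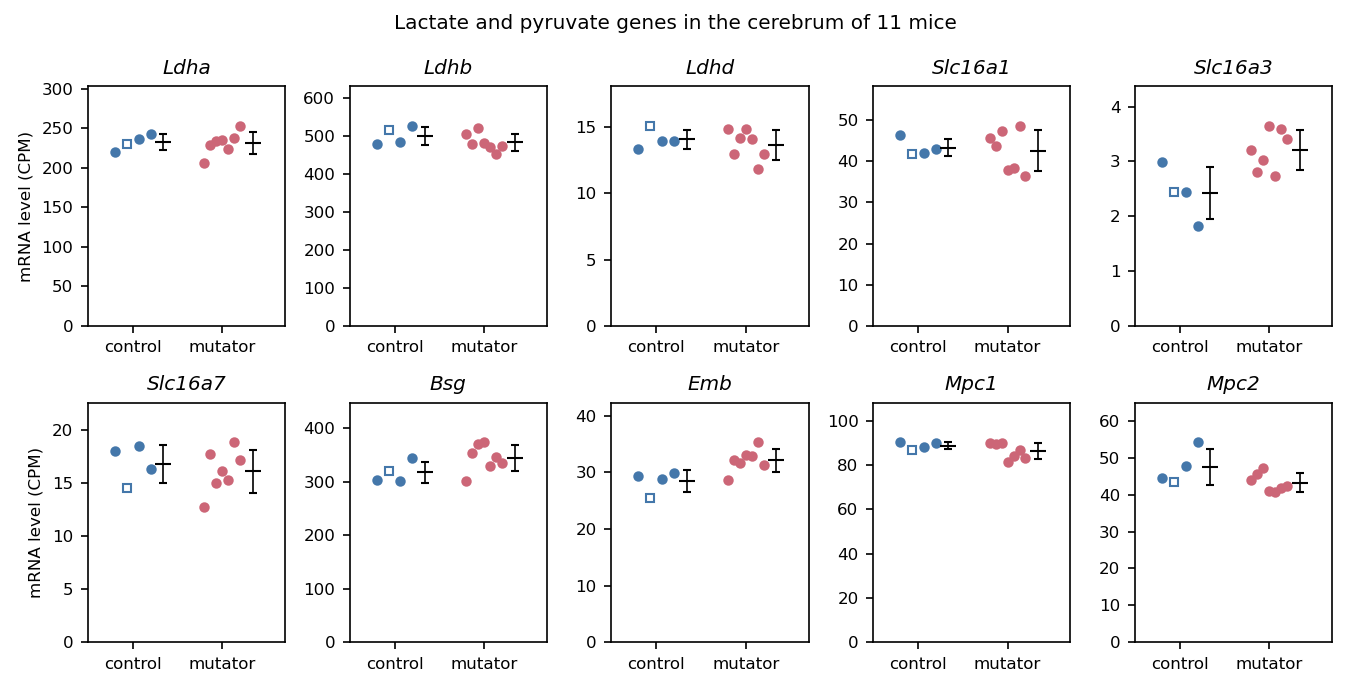
mRNA level (CPM, linear axis from 0) of each gene in each mouse, controls in blue and mutators in red, with the mean and SD beside each group. The open square is the WT/D257A control, and the 2 groups overlap in all 10 panels.

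Ldha (ENSMUSG00000063229, chr7:54096845-54110997, plus strand) encodes the A chain. It had 220.3, 230.3, 237 and 243 CPM in control mice 205, 237, 239 and 246. The mutators ran from 207 to 253 CPM with a median of 234, so the lowest and the highest mouse of all were both mutators. The log2 fold change of mutator against control was -0.0077 (SE 0.049, adjusted p = 0.961), and its 95% interval covered 0.926 to 1.07 times the control level.

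Ldhb (ENSMUSG00000030246, chr6:142438769-142456477, minus strand), the gene of the B chain, had 478, 516, 484 and 527 CPM in the same controls. The mutators lay between 453 and 522 CPM with a median of 479, and 2 of the 7 were above the control mean of 501. Ldhb differed by a log2 fold change of -0.052 (SE 0.046, adjusted p = 0.627), with an interval of 0.902 to 1.03 times the control level. The fewest reads in a mouse were 6695 for Ldha and 14496 for Ldhb, and their SDs among controls were 4.22% and 4.74% of the mean.

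The ratio of Ldha to Ldhb reads within a mouse does not depend on library scaling. It was 0.461, 0.446, 0.489 and 0.462 in control mice 205, 237, 239 and 246. In the mutators it was 0.409 in mouse 207, 0.478 in mouse 211, 0.448 in mouse 217, 0.490 in mouse 236, 0.474 in mouse 240, 0.526 in mouse 248 and 0.535 in mouse 249. Of the 7 mutators, 3 had a higher ratio than any control and 1 a lower one. The means were 0.465 ± 0.0180 in controls and 0.480 ± 0.0436 in mutators (SD), and the mutator ratio was 1.03 times that of controls on the log2 scale (95% interval 0.916 to 1.15, two-sided exact permutation p = 0.548 over 330 splits, adjusted p = 0.823 over the 3 ratios tested). The smallest p these groups allow is 0.00303. Per base of the transcripts Ldha-001 and Ldhb-001 the mean ratio was 0.381 in controls, and 0.336 to 0.439 over the 11 mice. The B chain mRNA thus had more reads per base in every mouse. Reads lost to copies in the genome could shift this ratio in either direction. Ldha-001 matched 28 places at 85% identity or more but 0 at 95% or more. Ldhb-001 matched 1 place at either threshold. Over the union of all annotated exons, in which Ldha has many bases with almost no reads, the control mean was 0.245.

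**Figure D3:**
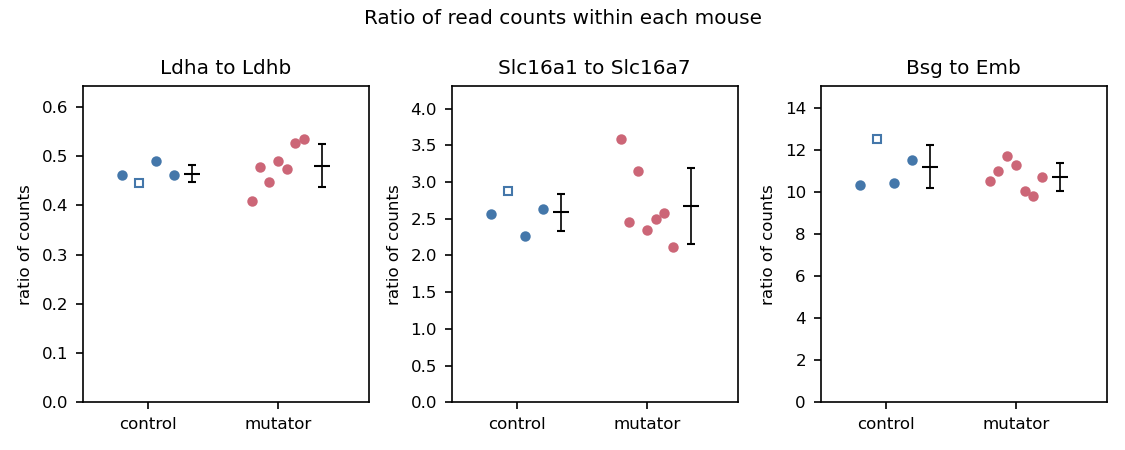
Ratio of read counts within each mouse for Ldha to Ldhb, Slc16a1 to Slc16a7 and Bsg to Emb (linear axes from 0), with the mean and SD of 4 controls and 7 mutators. The open square is the WT/D257A control, and the groups overlap in all 3 ratios.

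Ldhd (ENSMUSG00000031958, chr8:114147685-114154274, minus strand) encodes a mitochondrial dehydrogenase of D-lactate, the mirror form that the A and B chains do not use. Its levels were 13.3 to 15.1 CPM in controls and 11.8 to 14.9 CPM in mutators, ranges that share most of their length. The difference came to -0.041 on the log2 scale (SE 0.072, adjusted p = 0.835, 0.876 to 1.08 times the control level). Of its 5328 exonic bases, 2246 are also exonic in Znrf1 on the opposite strand, and the counting is not stated to use strand.

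Among the transporters, Slc16a1 (ENSMUSG00000032902, chr3:104442591-104462385, plus strand) had 41.9 to 46.3 CPM in controls. The mutators spread more widely, from 36.4 to 48.6 CPM with a median of 43.7, with 2 above all controls and 3 below them. Mutators differed from controls by a log2 fold change of -0.024 (SE 0.074, adjusted p = 0.908, 0.883 to 1.09 times the control level). Slc16a7 (ENSMUSG00000020102, chr10:124663520-124766019, minus strand), the transporter with the higher affinity, had 14.6 to 18.5 CPM in controls and 12.7 to 18.9 CPM in mutators. Its log2 fold change was -0.067 (SE 0.091, adjusted p = 0.772, 0.836 to 1.09 times the control level).

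The ratio of Slc16a1 to Slc16a7 reads was 2.27 to 2.88 in controls and 2.11 to 3.59 in mutators, with a mutator median of 2.50. Mouse 207, with the lowest Ldha to Ldhb ratio, had the highest Slc16a1 to Slc16a7 ratio, and mouse 249, with the highest Ldha to Ldhb ratio, had the lowest. The mean ratio in mutators was 1.02 times that of controls on the log2 scale (95% interval 0.818 to 1.29, two-sided exact permutation p = 0.830, adjusted p = 0.830).

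Slc16a3 (ENSMUSG00000025161, chr11:120809794-120822182, plus strand), which encodes the lactate exporter MCT4, had the largest difference of the 10 genes. It had 2.99, 2.44, 2.45 and 1.82 CPM in control mice 205, 237, 239 and 246. The mutators had between 2.74 and 3.65 CPM with a median of 3.22, so all 7 were above the control mean of 2.42 and 5 were above the highest control. The log2 fold change was 0.38 (SE 0.14, unadjusted p = 0.0120, adjusted p = 0.175), an interval of 1.07 to 1.58 times the control level, and so it did not pass the test over all genes. Its counts were the lowest of the 10 genes, from 50 in control mouse 246, the shallowest library, to 365 in control mouse 205. Counting alone gives an SD of 14.1% at the 50 reads of mouse 246. The SDs among mice were 19.7% of the mean in controls and 11.3% in mutators. The mutators had 117 to 333 reads, at which counting alone gives a smaller SD than at 50. Of its 5318 exonic bases, 831 are also exonic in Csnk1d on the opposite strand.

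Bsg and Emb encode membrane glycoproteins of the immunoglobulin superfamily that bring the transporters to the cell surface, basigin with MCT1 and MCT4 and embigin with MCT2. Emb (ENSMUSG00000021728, chr13:118009432-118062905, plus strand) had the lowest p of the 10 genes. It had 29.4, 25.5, 28.8 and 29.9 CPM in control mice 205, 237, 239 and 246, the lowest in the WT/D257A mouse. The mutators had between 28.6 and 35.2 CPM with a median of 32.1, so all 7 were above the control mean of 28.4 and 6 were above the highest control. That is a log2 fold change of 0.18 (SE 0.060, unadjusted p = 0.00764, adjusted p = 0.143, 1.04 to 1.23 times the control level). Without the WT/D257A mouse it was 0.13 (adjusted p = 0.501).

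Bsg (ENSMUSG00000023175, chr10:79167103-79174724, plus strand) had 304, 319.8, 301 and 344 CPM in the same controls. In the mutators it ran from 301 to 373 CPM with a median of 346, and 4 of the 7 were above the highest control. For Bsg the log2 fold change was 0.12 (SE 0.055, unadjusted p = 0.0447, adjusted p = 0.305, 1.00 to 1.18 times the control level). The Bsg to Emb read ratio was 10.3 to 12.5 in controls and 9.80 to 11.7 in mutators, 0.959 times the control ratio (95% interval 0.859 to 1.07, two-sided exact permutation p = 0.385, adjusted p = 0.823).

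Exon counts, which were deposited for the 3 WT/WT controls and the 7 mutators, show which form of Bsg the cerebrum makes. The second exon (chr10:79171442-79171789, 348 bases) is in the transcript Bsg-201 and is skipped in Bsg-202. The long form that contains it has an extra immunoglobulin domain and is known from the retina. This exon held 0.453% ± 0.0246 of the Bsg exon counts in WT/WT mice and 0.475% ± 0.0733 in mutators (SD, n = 3 and 7), between 42 and 174 reads per mouse, though it makes up 348 of 1752 exonic bases. The exon was little used in both groups, and the change in its use did not pass the test (log2 fold change of usage 0.089, adjusted p over all exon bins 0.999995).

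**Figure D4:**
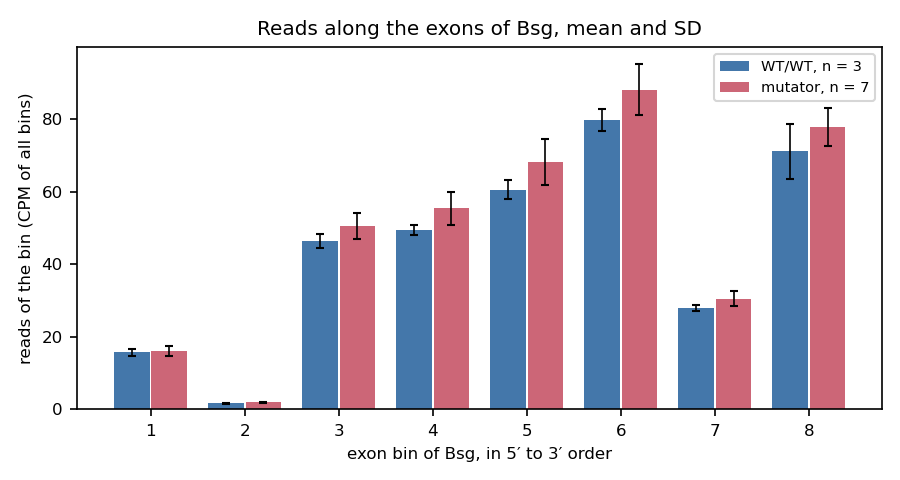
Reads in each of the 8 exon bins of Bsg, in CPM of all bin counts (linear axis from 0), with the mean and SD of 3 WT/WT controls and 7 mutators. The second bin, the exon of the long form, has 1.60 CPM in WT/WT mice beside 46.4 CPM in the bin after it. A read that spans several bins is counted in each, so short bins such as the seventh (25 bases) hold more reads than their length alone would give.

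In all, 120 of the 150 exon bins of the 10 genes were tested for a change in usage, and 0 passed, where 49 of 206930 bins (0.0237%) passed over all genes (edgeR, adjusted p under 0.05). The lowest unadjusted p of the 120 bins was that of bin 24 of Mpc1 (chr17:8490315-8490359, 45 bases). This bin held 4.65% ± 0.561 of the exon counts of Mpc1 in WT/WT mice and 5.75% ± 0.583 in mutators (edgeR, unadjusted p = 0.0333, adjusted p = 0.999995). The next lowest unadjusted p was 0.0699 for the first exon of Slc16a1, with 4.71% ± 1.19 of its exon counts in WT/WT mice and 3.84% ± 0.931 in mutators. In each of the other 8 genes, the lowest unadjusted p of a bin in the edgeR fit lay between 0.134 (bin 26 of Ldhd) and 0.357 (bin 15 of Ldha), with bin 1 for Ldhb, Bsg and Mpc2, bin 5 for Slc16a7 and Emb and bin 15 for Slc16a3 as the bin concerned.

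Mpc1 and Mpc2 form the carrier that takes pyruvate into mitochondria. Mpc1 (ENSMUSG00000023861, chr17:8475769-8490526, plus strand) had 86.6 to 90.2 CPM in controls and 81.5 to 90.0 CPM in mutators. It varied least of the 10 genes among controls, with an SD of 1.93% of the mean, and its log2 fold change was -0.039 (SE 0.044, adjusted p = 0.713, 0.914 to 1.04 times the control level). Of its 2086 exonic bases, 480 are also exonic in 4930506C21Rik on the opposite strand. Mpc2 (ENSMUSG00000026568, chr1:167391168-167411345, plus strand) had 44.5, 43.5, 47.8 and 54.1 CPM in control mice 205, 237, 239 and 246. The mutators had 40.6 to 47.3 CPM with a median of 42.2, and all 7 were below the control mean of 47.5. The log2 fold change was -0.13 (SE 0.061, unadjusted p = 0.0401, adjusted p = 0.290, 0.836 to 0.995 times the control level). Without control mouse 246, the highest of all mice, it was -0.068 (adjusted p = 0.696).

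The surrounding pathway was read from 4 lists of genes, in which 0 of the 43 tested genes passed the edgeR test and 3 had an unadjusted p under 0.05. Over all 17983 tested genes, 1.24% passed and 15.8% had an unadjusted p under 0.05. The first list held relatives of these genes, that is, the testis dehydrogenase Ldhc, Uevld, other Slc16a carriers, the sodium-coupled carriers Slc5a8 and Slc5a12 and the receptors Hcar1 and Hcar2, of which 13 were tested. Their log2 fold changes ran from -0.23 to 0.69 with a median of 0.043, and 2 had an unadjusted p under 0.05, namely Hcar1 and Uevld. Ldhc, Slc5a8 and Hcar2 had too few reads to be tested.

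Hcar1, listed as Gpr81, encodes the cell surface receptor of lactate and had the lowest p of the 4 lists. It had 0.548, 0.691, 0.497 and 0.581 CPM in control mice 205, 237, 239 and 246. The mutators had between 0.775 and 1.12 CPM with a median of 0.867, so every mutator was above every control, which held for 216 of 17983 genes (1.2%). The log2 fold change was 0.69 (SE 0.20, unadjusted p = 0.00261, adjusted p = 0.0920), 1.21 to 2.17 times the control level, from 16 to 104 reads per mouse. It did not pass the edgeR test but passed with DESeq2 (adjusted p = 0.0343), and over the 18 alternatives its adjusted p ran from 0.0343 to 0.208.

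The 14 genes that govern the other fates of pyruvate, that is, pyruvate kinase Pkm, pyruvate dehydrogenase with its kinases and phosphatases and pyruvate carboxylase Pcx, had log2 fold changes from -0.079 to 0.12 with a median of 0.0032. The lowest p was that of Pdpr, a regulator of pyruvate dehydrogenase phosphatase, with 42.1 ± 3.46 CPM in controls and 45.4 ± 2.18 in mutators (log2 fold change 0.10, SE 0.056, adjusted p = 0.374). Pdk1, a kinase that turns pyruvate dehydrogenase off, had 65.2 ± 4.05 and 65.0 ± 2.87 CPM. The 9 genes of the malate-aspartate and glycerol phosphate shuttles, which carry the electrons of cytosolic NADH into mitochondria and so compete with lactate dehydrogenase, ran from -0.050 to 0.12 with a median of 0.0057. Slc25a13, an aspartate-glutamate carrier, had the lowest p there (4.38 ± 0.609 CPM in controls and 4.73 ± 0.346 in mutators, log2 fold change 0.12, SE 0.11, adjusted p = 0.637).

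Of the 7 regulators, Hif1a, Epas1, Arnt, Myc, Esrra, Ppargc1a and Ppargc1b, 6 had positive log2 fold changes, with a median of 0.074 over the 7. Over all tested genes, 9072 of 17983 were positive, with a median of 0.0014. The lowest p was that of Esrra, a nuclear receptor of mitochondrial genes, with 58.1 ± 4.04 CPM in controls and 53.4 ± 1.54 in mutators (log2 fold change -0.12, SE 0.049, unadjusted p = 0.0250, adjusted p = 0.235). Hif1a mRNA had 86.7 ± 6.48 CPM in controls and 91.6 ± 4.40 in mutators (log2 fold change 0.079, SE 0.052, adjusted p = 0.485). HIF-1 is governed mainly through the stability of its protein, which mRNA counts do not show.

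**Figure D5:**
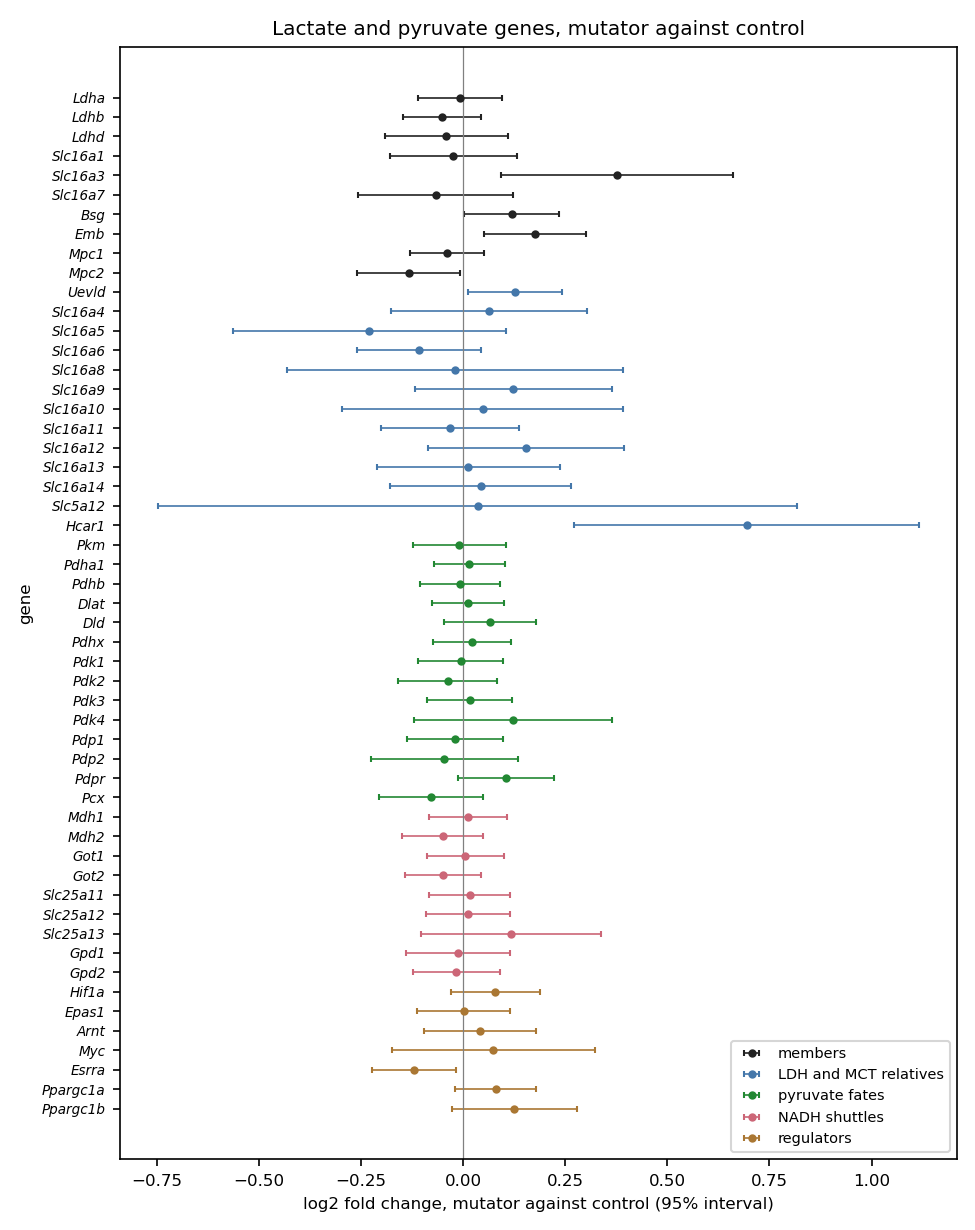
Log2 fold change of mutator against control with its 95% interval for the 10 genes (black) and the 43 tested genes of the 4 pathway lists (other colours). Hcar1 stands farthest from 0 at 0.69, Slc16a3 is next at 0.38, and the intervals of the genes with low counts, such as Slc5a12, are the widest.

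Genes whose log2 CPM followed each of the 10 over the 11 mice were looked up among all tested genes, up to 3 per gene. Since each is the best of all other tested genes, the values are a description only, and the points share libraries and depth. Ldha went with the endoplasmic reticulum chaperone genes Calr, Dnajb11 and Hsp90b1 (Pearson r of 0.93, 0.93 and 0.92). Without the 2 mice farthest from the Ldha median, these r values were 0.75, 0.83 and 0.74. Ldhb went with the ribosomal protein genes Rpl10a and Rpl36 (r of 0.945 and 0.945, and 0.93 and 0.92 without the 2 mice farthest from its median). The genes named for the A chain and for the B chain differed, but lists this short, taken from all tested genes, would rarely share a member.

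Slc16a1 went with Shc4, Actl6a and Gm12002 (r of 0.91, 0.90 and 0.90), Slc16a7 with Ankrd13c, Dlg1 and Man1a2 (0.94, 0.94 and 0.93) and Slc16a3 with A230087F16Rik, Antxr1 and Top1mt (0.97, 0.95 and 0.93). Bsg went with Anxa2, Cst7 and Msn (0.93, 0.90 and 0.88) and Emb with Pbrm1, Epm2aip1 and Ift74 (0.95, 0.94 and 0.94). Mpc1 went with Parl, Kcnmb2 and 1810027O10Rik (0.94, 0.93 and 0.92), Mpc2 with Pomp, Cox5a and Bysl (0.94, 0.93 and 0.90) and Ldhd with Tnk2, Gfer and Glrx5 (0.95, 0.94 and 0.94). Spearman's rho was 0.80 to 0.97 over the 29 pairs. Without the 2 mice farthest from each gene's median, r was 0.60 to 0.96, and the lowest was that of Mpc2 with Bysl. None of these 29 genes passed the edgeR test between the groups, where 1.24% of all tested genes did.

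Markers of brain cell types were read beside these genes, 5 genes per type, except that the neuronal gene Rbfox3 is not analysed here. The tissue held markers of all types, with at least 1 read for each. For neurons, the summed level was 4313 to 4654 CPM in controls and 4199.8 to 4610.1 in mutators, and for astrocytes 1125 to 1217 and 1090.0 to 1321. Among the markers only Abcc9 of pericytes passed the edgeR test, where 1.24% of all tested genes did. It had 11.1 CPM in controls and 17.5 in mutators (log2 fold change 0.64, adjusted p = 0.000433). The other pericyte markers had log2 fold changes of 0.27 (Kcnj8), 0.13 (Rgs5), 0.0028 (Pdgfrb) and -0.19 (Anpep).

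The 5 microglial markers had negative log2 fold changes, with a median of -0.20, summing to 186 to 236 CPM in controls and 174 to 206 in mutators. The 5 blood markers were all positive with a median of 0.64, summing to 57.5 to 198 and 89.7 to 256.9 CPM. Of all 17983 tested genes, 9072 had positive and 8911 negative log2 fold changes. The sum for oligodendrocytes, most of it Mbp, was 4499 to 5197 CPM in controls and 4464 to 6287 in mutators, though 3 of the 5 markers had negative log2 fold changes, with a median of -0.16 and the lowest p for Mag (-0.31, adjusted p = 0.0558). For choroid plexus, where Ttr makes up most of the sum, it was 514 to 693 and 527 to 755 CPM, with a median log2 fold change of -0.12 over the 5 markers. The sums were 133 to 161 CPM in controls and 137 to 189.8 in mutators for endothelial cells and 139 to 148 and 146 to 175.0 for pericytes, with median log2 fold changes of 0.0029 and 0.13. Their part in the values of the lactate genes was not tested.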

How the data were processed

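Poly(A)+ RNA of the cerebrum was sequenced as 100-base read pairs in 11 mice. Per the labels, the authors used TopHat2 2.0.6 and Bowtie2 2.0.2.0 on mm9, counted them on Ensembl genes with HTSeq 0.5.3p9 and deposited raw counts per gene for all 11 mice and raw counts per exon bin for 10, without the WT/D257A control. Whether the counting used strand is not given in the sources used here, and the library kit does not mark strand. Their DESeq and DEXSeq tables hold fold changes and p-values of the same comparisons and were not used, nor was a table of read totals.

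Here, the gene test was the robust quasi-likelihood test of edgeR 4.0.16 (R 4.3.3) after its filterByExpr step and TMM scaling, with Benjamini-Hochberg adjustment over all genes and a threshold of 0.05. Exon bins were tested with diffSpliceDGE of edgeR, and reads in no bin (20.6% to 23.4% of the exon files) were left out. Ratios of counts were compared by exact permutation tests, with intervals from shifting the mutator values until the test rejected them. Log2 CPM used a prior count of 2. The code was tested on simulated data. Copies in mm9 were searched with blastn 2.17.0, and exon and transcript lengths came from GENCODE vM1, a later Ensembl release on the same build.

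The 10 genes and the lists were chosen with earlier results of these data known. Named are the 10 genes, in each list the genes that passed or else the one with the lowest p, the 3 genes with the highest Pearson r for each of the 10 (mean of at least 1 CPM), and per gene the exon bin with the lowest p. Pdk1, Hif1a, Uevld, Slc5a12 and the exon of the long Bsg form were named after their values were seen. Some genes of the lists and of the similar genes are not reported here and were left out of the counts over them. Alternatives were DESeq2 1.42.0, RLE and upper-quartile scaling, a filter at a mean count of 10 or none, the log2 library total as a covariate, the mitochondrial genes removed, limma 3.58.1 for exon bins, merged exon groups left out, exon bin sums or untransformed values for the ratios, the 3 WT/WT controls only, and each mouse left out in turn.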

Additional observations from a re-analysis of the deposited data

Results flagged for a closer look

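Among the 28 groups checked, that is, controls and mutators for each of the 10 genes, Hcar1 and the 3 ratios, 0 held a mouse that stood apart from the rest of its group by Dixon's criterion, where chance alone would mark about 1 in 20.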

How the results depend on the processing

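Of the 10 genes, 0 passed under any of the 18 alternatives, and 0 of their exon bins passed under any of 13. The fold changes of Ldha and Slc16a1 had no stable sign. Leaving out 1 mouse at a time, the log2 fold change ran from -0.035 to 0.019 for Ldha and from -0.058 to 0.010 for Slc16a1, with 4 of 11 values above 0 in each. The other 8 genes kept their sign in all 18. The lowest adjusted p was 0.0608, for Emb without mutator mouse 207, and 0.0765 for Slc16a3, without control mouse 205. The log2 difference of the Ldha to Ldhb ratio ran from 0.016 to 0.081 with 1 mouse left out, that of Slc16a1 to Slc16a7 from -0.041 to 0.086 (below 0 in 3 of 11) and that of Bsg to Emb from -0.097 to -0.0046, with p no lower than 0.171. With DESeq2, 1 pathway gene passed, Hcar1 (log2 fold change 0.70), where 0 passed with edgeR. Over all genes, 223 passed with edgeR, 616 with DESeq2 and 346 with no filter, and from 50 (without control mouse 237) to 412 (without control mouse 205) with 1 mouse left out. The count also fell to between 93 and 142 without control mouse 239 or 246 or mutator mouse 211, 236, 240 or 248. Over all exon bins, 49 passed, with 25 for limma, 21 without merged groups and from 5 (without control mouse 239) to 186 (without control mouse 205) with 1 mouse left out, among them 100 without mutator mouse 207, 85 without 236, 19 without 240 and 22 without 248. The causes were not tested. No paired analysis was possible because the mouse numbers do not pair mutators with controls. Of the 10 genes, depth limits Slc16a3 most, at 50 reads in control mouse 246. Hcar1 had 16 reads there, and Slc5a12 between 3 and 20 in each mouse. Lengths of transcripts in place of all annotated exons, added after seeing the data, moved the control Ldha to Ldhb ratio per length from 0.245 to 0.381.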
